A study of Mus musculus with 55 samples.

Results

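IL-670 is one of the inbred lines of the Collaborative Cross, and its 3 mice were compared here with all other mice of the cohort. The members were the mice whose strain label is IL-670, which were 3 of 55 mice, and the other 52 mice came from 28 lines, of which 8 gave 1 mouse, 16 gave 2 mice and 4 gave 3 mice. All were male, untreated, and kept on chow with water, and RNA was taken from the liver of each mouse. The IL-670 mice, numbered 4473, 4474 and 4475, were 9.1 weeks old and weighed 20.2, 19.6 and 21.8 g. The other mice were 8 to 11.9 weeks old and weighed 12.8 to 38 g, with a median of 23.3 g. Mice of 1 line share nearly all of their genome, so the 3 mice are 3 animals of 1 genotype, and p-values over them measure the spread between mice, not between lines like IL-670. A difference of the line can lie at any of the many loci at which it differs from other lines.

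The Collaborative Cross lines were bred from several founder strains, some from wild-derived subspecies, and each line is a fixed mosaic of the founders' genomes. A variant in or near a gene can set how much RNA that gene gives, and which of its first exons or splice sites are used, in every mouse that carries it. The liver handles drugs and toxins with enzymes from large clustered gene families (cytochromes P450, carboxylesterases, glucuronosyltransferases, glutathione transferases) whose copies often differ between strains, and it makes cholesterol, bile acids and most plasma proteins.

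Libraries of the 3 IL-670 mice held 29.3, 32.7 and 26.6 M estimated fragments assigned to genes (M, mega), against 20.5 to 34.0 M in the other mice. Over the 11284 genes that reached 2 FPKM (fragments per kilobase of transcript and M fragments) in at least 1 mouse, the rank correlation between IL-670 mice was 0.985 to 0.989, and no mouse of another line exceeded 0.946 with any of them. The pairs of IL-670 libraries differed by far more than sampling noise. The tissue label held, since all 10 hepatocyte markers tested were present and summed to 69732 to 78677 FPKM. Mouse 4474 stood apart from its line mates in some gene groups, which is given beside those groups. Counts were also made without the lines IL-1052 and IL-2750.

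Expression was compared in 2 ways that ask different questions. An edgeR quasi-likelihood test set the IL-670 mice against the unweighted mean of the other lines, with the spread between mice of the same line as its error. It called 2269 of 11284 genes (20.1%), 1287 higher (11.4%) and 982 lower (8.7%) in IL-670. A limma test on the line means of log2(FPKM + 1), 1 value a line, asked whether IL-670 lay outside the spread between lines, and called 7 genes (0.062%), 4 higher (0.0354%) and 3 lower (0.0266%). With log2 CPM in place of FPKM it called 2 higher and 4 lower, and with a pseudocount of 0.1 in place of 1 it called 2 higher and 5 lower. For a single gene, 1 line among 29 cannot reach a one-sided permutation p under 0.0345. All p-values are adjusted by Benjamini-Hochberg over all genes tested, and log2 differences are given ± SE. In 62 genes (0.549%) all 3 IL-670 mice lay outside the range of the 52 other mice, above it in 18 (0.16%) and below it in 44 (0.39%), and edgeR called each of them. IL-670 had the highest line mean in 80 genes (0.709%) and the lowest in 332 (2.94%). In the 4 other lines with 3 mice, 0 to 28 genes lay above and 0 to 51 below all remaining mice.

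The gene called by both tests in expression and in isoforms was Sdr42e1 (chr8:120185299-120197589 in mm9, minus strand, ENSMUSG00000034308), a short-chain dehydrogenase related to the 3-beta-hydroxysteroid dehydrogenases. Its FPKM was 15.5, 16.8 and 14.7 in the IL-670 mice and 28.7 to 88.7 in the other mice, with a median of 53.3. The groups did not overlap. The line mean was 15.7 ± 1.07 FPKM (SD, n = 3) against 54.5 ± 12.4 (SD, n = 28 lines), which is 3.47-fold lower (edgeR log2 difference -1.57 ± 0.12, adjusted p = 5.91e-11, and limma on line means adjusted p = 0.0344). On line means of log2 CPM (counts scaled to library size) the second test did not pass.

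The isoform estimates showed which of the transcripts of Sdr42e1 was low. The annotation gives Sdr42e1 2 alternative first exons, 2142 bases apart, and isoform Sdr42e1-001 (ENSMUST00000173522) begins at the outer one at position 120197589, while Sdr42e1-003 (ENSMUST00000037955) begins at the inner one at 120195447. Sdr42e1-001 made up 37.6%, 37.7% and 35.1% of the gene's RNA in the IL-670 mice and 59.7% to 82.1% in the other mice. This was a difference of -36.2 ± 1.82 percentage points (SE), and the only isoform ratio of 6157 past both limma tests (adjusted p = 3.43e-14 against the mean of the lines and 3.98e-05 against their spread). In estimated fragments, Sdr42e1-001 had 432, 528 and 347 in IL-670 against 1137 to 5264 in the others, again without overlap. Sdr42e1-003 had 735, 819.9 and 627 fragments against 314 to 1475, with a median of 685, so here IL-670 lay inside the range of the other lines. Another isoform, Sdr42e1-002, which shares the outer first exon, had 13.9, 37.3 and 20.6 fragments in IL-670 and 20.2 to 235 in the others.

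**Figure D1:**
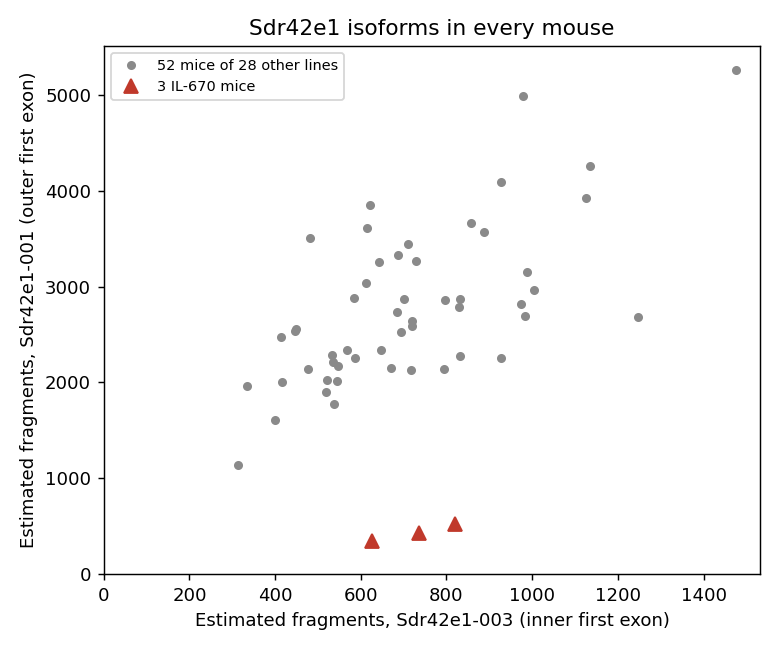
Estimated fragments of the 2 main Sdr42e1 isoforms in every mouse, Sdr42e1-003 on the x axis and Sdr42e1-001 on the y axis, with the 3 IL-670 mice as red triangles and the 52 other mice as grey circles. The IL-670 mice lie inside the x range (627 to 819.9) and below every other mouse on the y axis (347 to 528, against at least 1137).

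A neighbour upstream of Sdr42e1, on the opposite strand with its start 28.3 kb away, is Hsd17b2 (chr8:120225846-120282929), which oxidises estradiol and testosterone to less active steroids. Unlike Sdr42e1 it was higher. Hsd17b2 had 269, 233 and 272 FPKM in the IL-670 mice and 65.9 to 169 in the others, so all 3 mice were above all 52. The line mean was 2.27-fold that of the other lines (258 ± 21.6 against 114 ± 20.6 FPKM, edgeR log2 difference 1.29 ± 0.13, adjusted p = 1.95e-08), and it did not pass against the spread between lines (adjusted p = 0.137).

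Bhmt2 (chr13:94425675-94444257, ENSMUSG00000042118), which remethylates homocysteine with S-methylmethionine as donor, was the other protein-coding gene past both tests with no overlap. It had 20.3, 37.1 and 33.0 FPKM in IL-670 and 60.7 to 106 in the other mice, 2.68-fold lower by line means (30.2 ± 8.75 against 81.0 ± 11.7). Its edgeR log2 difference was -1.33 ± 0.11 (adjusted p = 4.90e-10), and limma on line means gave adjusted p = 9.29e-04. Its neighbour Bhmt, 17.8 kb away, carries out the same step with betaine and was not called, with 526, 1501 and 705 FPKM against a median of 975 (edgeR adjusted p = 0.94). Gm4788, a gene of the complement factor H family on chromosome 1, was called by both tests too, with 1.91, 3.07 and 2.65 FPKM against a median of 90.4 in the other mice (edgeR log2 difference -4.92 ± 0.27, adjusted p = 1.97e-14, limma on line means adjusted p = 0.0273). Its range overlapped narrowly, since the lowest other mouse had 3.04 FPKM, and the lowest other line, IL-72, had a line mean of 3.48. The second call was lost when only lines with at least 2 mice were used.

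The 4 genes called higher against the spread between lines were 3 pseudogenes and an immunoglobulin gene. Rps6-ps3, a processed copy of the ribosomal protein gene Rps6, had 3.41, 2.01 and 2.27 FPKM in IL-670 and at most 1.35 in any other mouse, and was listed at 0 in 21 of the 28 other lines. Gm14138, another copy of Rps6, had 2.79, 1.5 and 0.92 FPKM against at most 0.58, with 21 lines at 0. Gm5580 had 2.08, 2.46 and 2.68 FPKM against at most 1.3, with 22 lines at 0. Limma on line means gave adjusted p = 7.79e-07, 7.58e-08 and 0.0273, and edgeR adjusted p = 1.71e-05, 9.66e-07 and 5.56e-05. All 3 reached the filter of 2 FPKM only through IL-670 mice, so these p-values are no independent evidence that the copies are high there. DESeq2 called none of the 3, and Gm5580 also lost the line-level call with a pseudocount of 0.1. A fragment from such a copy is hard to place: Rps6-ps3 is 98.5% identical to the Rps6 transcript over 750 bases, and 49.9% of its windows of 50 bases, the read length, occur in Rps6 without a change. The stretch shown, chr9:53498277-53498366 (mm9, minus strand), was chosen as a coding stretch of 90 bases with the most differences, so other stretches differ no more. Rps6-ps3 reads as follows there against the Rps6 coding sequence from position 23 to 112. The 4 differing bases are in capitals and are what separates a fragment of one from a fragment of the other here.
Rps6-ps3: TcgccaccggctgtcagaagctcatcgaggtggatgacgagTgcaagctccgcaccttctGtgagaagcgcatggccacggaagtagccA
Rps6: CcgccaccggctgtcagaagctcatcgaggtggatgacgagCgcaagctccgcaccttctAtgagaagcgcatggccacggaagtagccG
Rps6 itself had 304, 276 and 272 FPKM in IL-670, with 95.7 to 429 in the others and an edgeR adjusted p of 0.0673. A further copy of a ribosomal gene lay above all other mice, Gm4604 (36.8, 33.3 and 29.0 FPKM against at most 28.7), 99.2% identical to Rpl36. Levels of these copies are uncertain for that reason. Of 413 pseudogenes tested, edgeR called 105 higher and 11 lower, against 1125 higher and 944 lower of 10442 protein-coding genes. Ighg1, the constant part of an immunoglobulin heavy chain, had 7.41, 3.6 and 4.61 FPKM against a median of 0.21 and a highest value of 20.6.

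Beyond these, some genes outside the range of all other mice lay near each other. Chromosome 11 held 15 of the 62 (24.2%), against 8.29% of all genes tested, and 12 of the 15 lay between 70 and 87 Mb. This stretch was chosen after the values were seen. Of its 199 genes tested, edgeR called 29 higher and 41 lower (35.2% against 20.1% over all genes). Called shares were as high or higher elsewhere, such as 42.9% on chromosome 5 between 110 and 120 Mb, where 1 gene lay outside the range. On the chromosome 11 stretch 4 genes lay above all other mice. Tlcd2, a membrane protein of the TLC-domain family, had 144, 164 and 166 FPKM against at most 116, and Gltpd2, of the glycolipid transfer proteins, had 72.3, 72.0 and 80.1 against at most 60.8. Txndc17, a thioredoxin-like protein, and Slc16a11, of the monocarboxylate transporter family, were 1.43-fold and 2.12-fold the mean of the other lines. The low ones on this stretch were Spata22, Aldoc, Slc13a2, 1100001G20Rik, Glod4, Utp6, Aatf and Ptrh2. Of these, 1100001G20Rik, a small secreted protein, had 0.49, 0.85 and 0.77 FPKM against 2.36 to 1335 and a median of 543. This gene was also low in other lines, since IL-3912 had a mean of 3.06 FPKM and IL-2693 3.34. Slc13a2, a carrier of citrate and succinate, was listed at 0 in all 3 IL-670 mice and had 0.03 to 3.08 FPKM in the others, which is a low level throughout. Spata22, a meiosis gene, had 0, 0.01 and 0 FPKM against 0.32 to 7.33.

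Other genes were likewise picked after their values were seen. Those above all other mice included Afm, the vitamin E-binding plasma protein afamin (209.6, 213 and 189.9 FPKM against at most 187), Gpx7, a glutathione peroxidase of the endoplasmic reticulum (3.42, 2.87 and 4.41 against at most 2.3), and the class I histocompatibility gene H2-Bl (42.5, 42.1 and 49.8 against at most 28.4). Among the genes below all other mice were Amdhd1, an enzyme of histidine breakdown, at 20.1, 21.5 and 17.8 FPKM against 22.7 to 106, and Tpst1, which sulfates tyrosines of secreted proteins, at 3.12, 3.26 and 2.88 against 3.32 to 14.1. F7, coagulation factor VII, had 26.5, 30.8 and 29.8 FPKM against 31.3 to 92.9, a 1.6-fold lower line mean (edgeR log2 difference -0.57 ± 0.12, adjusted p = 0.00119). Pdha1, the alpha subunit of pyruvate dehydrogenase, was 1.55-fold lower and Eif3l, of a translation initiation factor, 1.55-fold lower. For many of these the gap to the nearest other mouse was narrow. Only Gstt1, Sdr42e1, Bhmt2 and 1100001G20Rik were at least 1.5 times beyond the nearest other mouse on FPKM + 1.

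**Figure D2:**
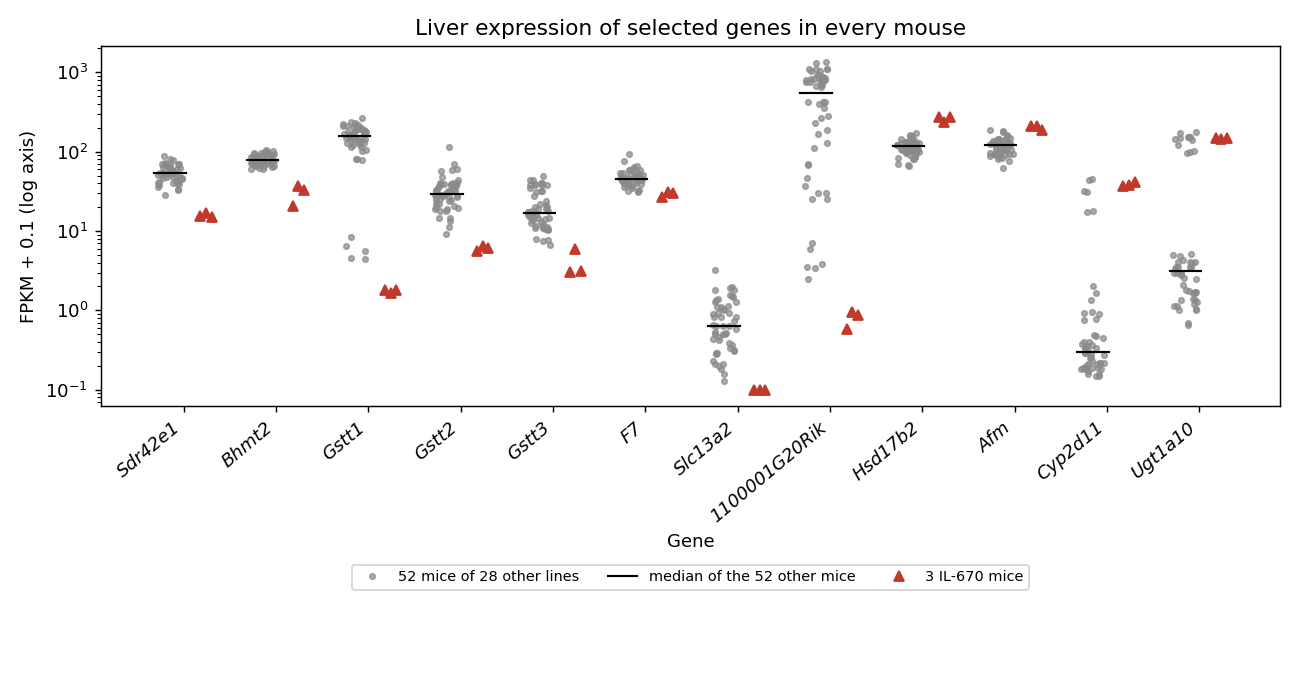
FPKM + 0.1 on a log axis of 12 genes in every mouse, with grey circles for the 52 other mice, a black bar for their median and red triangles for the 3 IL-670 mice. The triangles lie below all circles from Sdr42e1 to 1100001G20Rik, above all circles for Hsd17b2 and Afm, and beside the few high circles for Cyp2d11 and Ugt1a10.

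Conjugation enzymes couple drugs and their metabolites to glutathione, glucuronic acid, sulfate or methyl groups. Of 60 tested, 12 were called higher and 16 lower in IL-670, a share of 46.7% against 20.1% over all genes, with a median log2 difference of -0.14 (0.0011 over all genes). The 3 theta-class glutathione transferases, neighbours on chromosome 10, were all low and all below the other 52 mice. Gstt1 (chr10:75246558-75261329) had 1.72, 1.55 and 1.71 FPKM in IL-670 against 4.29 to 266, with a median of 156 (edgeR log2 difference -6.12 ± 0.46, adjusted p = 2.92e-11). In 2 other lines Gstt1 was also low, IL-3348 at a mean of 5.0 and IL-2011 at 5.3 FPKM. The next line, IL-3438, had a mean of 44.3 from 2 unlike mice, 1 of them also low (8.36 and 80.2 FPKM). Gstt2 had 5.52, 6.44 and 5.95 FPKM against 9.16 to 115, and Gstt3 had 2.98, 5.82 and 3.06 against 6.57 to 49.2, so their line means were 6.03-fold and 5.8-fold lower. The line-level test did not pass for any of the 3 (limma adjusted p = 0.17, 0.613 and 0.858).

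Glucuronosyltransferases went both ways. Ugt1a10 had 148, 144 and 146 FPKM in IL-670 against a median of 3.07, but it was over 100 FPKM in 6 other lines as well, and the remaining 22 were at most 4.55 (edgeR log2 difference 4.99 ± 0.09, adjusted p = 2.86e-27). Ugt1a6b, from the same locus, was 1.67-fold the mean of the other lines (edgeR log2 difference 0.97 ± 0.08, adjusted p = 6.76e-11), while Ugt1a1, the enzyme that conjugates bilirubin, was lower (77.5, 75.5 and 50.2 FPKM against a median of 103, edgeR log2 difference -0.72 ± 0.18). Ugt3a2 had its lowest line mean in IL-670, at 3.37, 3.3 and 5.97 FPKM against a median of 77.8 (edgeR log2 difference -3.79 ± 0.41, adjusted p = 3.27e-08), with IL-2011 next at a mean of 4.71 FPKM. The 3 mice did not all lie below the other mice. Of the sulfotransferases, Sult1b1 (4.63, 4.64 and 3.53 FPKM against a median of 19.4) and Sult1d1 (8.15, 13.6 and 6.65 against 47.0) were lower and Sult5a1 (76.6, 61.1 and 85.7 against 23.2) was higher. Nnmt, which methylates nicotinamide, had the lowest line mean, with 0.75, 1.42 and 1.52 FPKM against a median of 8.64, though IL-3438 and IL-3348 were close by (means of 1.24 and 1.41).

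Among enzymes of oxidation, 13 of 69 were higher and 13 lower (37.7% against 20.1% over all genes, of which 11.4% higher and 8.7% lower), and with every mouse weighted equally 5 were higher and 2 lower. Cyp2d11 and Cyp2d12, P450 genes 161 kb apart on chromosome 15, had their highest line means in IL-670. Cyp2d11 had 36.3, 38.0 and 41.5 FPKM against a median of 0.2 in the other mice, and Cyp2d12 had 39.1, 41.6 and 34.9 against 0.595 (edgeR log2 differences 6.60 ± 0.31 and 5.34 ± 0.27, adjusted p = 9.43e-16 and 3.22e-15). IL-219 was next to it in both, at means of 38.1 and 35.4 FPKM, followed by IL-3438, so the top of the order did not separate beyond the spread between mice. The Cyp2d genes are close copies and their counts may be split between them. On the low side, Cyp2c44 had 10.4, 11.3 and 9.57 FPKM against a median of 97.0, Cyp2c40 had 4.82, 5.67 and 4.83 against 11.7, and Cyp2a5, the coumarin hydroxylase, had 5.8, 29.3 and 7.19 against 149.8, with mouse 4474 well above its line mates in the last.

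Of 41 enzymes of reduction and hydrolysis 12 were called higher and 2 lower (34.1% against 20.1% over all genes, of which 11.4% higher and 8.7% lower). With every mouse weighted equally 1 was higher and 1 lower. In the Ces2 cluster of carboxylesterases on chromosome 8, which hydrolyse ester drugs, neighbouring copies differed in direction. Ces2b had 43.9, 39.7 and 47.4 FPKM in IL-670, and only IL-557, with its single mouse at 61.8, had more than 2.43 among the other lines (edgeR log2 difference 4.81 ± 0.20, adjusted p = 4.29e-17). Ces2h had 24.9, 29.5 and 34.5 FPKM, rank 5 of 29, in a gene where 20 lines had at most 0.293 FPKM. Ces2c had the lowest line mean, with 4.04, 4.77 and 4.88 FPKM against a median of 23.6 (edgeR log2 difference -2.35 ± 0.53, adjusted p = 0.0015), and IL-557 was again next at 4.88. Ces4a, further along the chromosome, was listed at 0, 0 and 0.03 FPKM, below all other mice (0.06 to 9.15).

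The study lists 40 genes of drug disposition, and edgeR called 10 of them higher and 8 lower in IL-670 (45.0% against 20.1% over all genes). The study chose that list on these samples, so these counts are no independent evidence. By line mean IL-670 was at rank 1 of 29 for Cyp2d11 and Cyp2d12, rank 3 for Ugt1a6b and Ccbl2, rank 4 for Ugt1a10 and rank 5 for Ces2h. It was at rank 29 for Cyp2c40 and Ugt3a2, rank 27 for Cyp2c44 and rank 26 for Cyp2a22, Glrx2, Fmo1, Mgst3 and Gusb. Low ranks were common in this line, since over all genes 21.8% were among the 5 lowest line means and 7.34% among the 5 highest. Ccbl2, a kynurenine aminotransferase that also splits cysteine conjugates, had 184, 191 and 166 FPKM against a median of 76.5 (edgeR log2 difference 1.29 ± 0.15, adjusted p = 1.98e-07). Cyp2a22 and Glrx2 did not pass edgeR, and the other 26 genes ranked between 6 and 24. Of these 26, Ces1g, Glo1, Aldh16a1 and Gstm6 were higher, Cyp3a25 and Ugt3a1 were lower, and the P450 genes Cyp3a13 and Cyp3a16, the transferases Tpmt, Gsta2, Gstz1, Nat8 and Ugt1a6a, the reductases Akr1c13 and Akr1c19, Adhfe1, Aldh8a1, Ephx2, Dpys, Ces3a, Siae, Sulf2, Ccbl1, the transporters Slco1a1 and Abcc6 and the receptor Nr1i3 did not pass. For the drug irinotecan, the study's text gives IL-670 as an example of a line with distinct expression across 6 enzymes. Calls among these 6 are therefore no independent evidence. By total expression, the carboxylesterase Ces2h and the glucuronosyltransferases Ugt1a10 and Ugt1a6b were higher. The glucuronidase Gusb was lower (7.33, 8.0 and 8.24 FPKM against a median of 9.83, edgeR log2 difference -0.26 ± 0.09, adjusted p = 0.0394). Ces3b and Ugt1a6a were not called (edgeR adjusted p = 0.121 and 0.333). The study tied Gusb and Ugt1a6a to isoform ratios, not to total expression, and its figure of this pathway holds Ces3a in place of Ces3b.

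Genes of cholesterol synthesis and uptake formed the group with the largest called share of the lists. Of 24 tested, 19 were called higher and 0 lower (79.2% against 20.1% of all genes), with a median log2 difference of 0.70, and 16 ranked among the 5 highest of the 29 lines. Over all genes 7.34% ranked among the 5 highest. Mvd, which makes isopentenyl diphosphate, had 18.8, 38.5 and 23.6 FPKM against a median of 12.4 (edgeR log2 difference 1.35 ± 0.29, adjusted p = 8.40e-04). Acat2, the cytosolic thiolase at the head of the pathway, had 78.6, 126 and 89.7 against 45.0 and the highest line mean (edgeR log2 difference 1.11 ± 0.15). Idi1 and Sc4mol, an isomerase and a sterol demethylase, were 1.59-fold and 1.67-fold the mean of the other lines. Srebf2, the transcription factor that drives the pathway, was 1.41-fold (9.26, 14.2 and 11.9 FPKM, edgeR log2 difference 0.62 ± 0.10, adjusted p = 5.04e-05). Tm7sf2, a sterol reductase, had 115, 128 and 127 FPKM against at most 123. No member passed the line-level test.

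Mouse 4474 was the highest of the 3 IL-670 mice in 24 of these 24 genes, and the members summed to 1702, 2538 and 1887 FPKM in mice 4473, 4474 and 4475, against 762 to 2670.0 with a median of 1442 in the other mice. Without mouse 4474, 5 members were called higher and the median log2 difference was 0.53. With every mouse weighted equally and no term for the line, 2 were called. Mouse 4474 was also lowest of the 3 in 12 of 13 Kupffer cell markers, whose sums are given with the immune genes, and their part in the result was not tested.

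Promoters of 16 of the 24 genes were matched in the RefSeq table (GRCm38.p6), and the 250 bases before each start were searched on both strands. CCAAT, the letters read by the factor NF-Y, which with the SREBP factors is known to act at sterol genes, was in 14 of the 16 stretches, against 33.9% of all 32851 promoters. GGGCGG, read by Sp1, was in 15 of the 16, against 32.7%. TCACNCCAC, a form of the sterol regulatory element, was in 0 of 16, against 1.05%, which says only that these letters are not in this window. Only members that hold CCAAT are shown here, with it or its reverse complement in capitals, and not by the size of their difference. The stretches of Acat2 and Dhcr7 held none. Shown are Mvd at chr8:122443423-122443672 (minus strand), Idi1 at chr13:8885356-8885605 (plus), Mvk at chr5:114444019-114444268 (plus) and Sc4mol, now named Msmo1, at chr8:64733579-64733828 (minus).
Mvd: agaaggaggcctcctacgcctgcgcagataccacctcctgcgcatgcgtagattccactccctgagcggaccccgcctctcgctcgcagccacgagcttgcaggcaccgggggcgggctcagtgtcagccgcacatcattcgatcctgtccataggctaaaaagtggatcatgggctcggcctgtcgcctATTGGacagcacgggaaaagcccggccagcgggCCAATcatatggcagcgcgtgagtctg
Idi1: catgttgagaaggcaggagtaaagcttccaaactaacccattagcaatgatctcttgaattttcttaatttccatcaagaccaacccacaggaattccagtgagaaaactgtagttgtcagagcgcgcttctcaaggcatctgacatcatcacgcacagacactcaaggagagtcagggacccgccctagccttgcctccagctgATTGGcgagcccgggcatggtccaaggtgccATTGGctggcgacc
Mvk: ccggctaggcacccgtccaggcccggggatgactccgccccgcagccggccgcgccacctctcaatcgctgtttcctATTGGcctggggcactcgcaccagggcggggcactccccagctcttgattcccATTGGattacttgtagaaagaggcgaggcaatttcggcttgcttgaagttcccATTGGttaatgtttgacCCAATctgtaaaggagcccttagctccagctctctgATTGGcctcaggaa
Msmo1: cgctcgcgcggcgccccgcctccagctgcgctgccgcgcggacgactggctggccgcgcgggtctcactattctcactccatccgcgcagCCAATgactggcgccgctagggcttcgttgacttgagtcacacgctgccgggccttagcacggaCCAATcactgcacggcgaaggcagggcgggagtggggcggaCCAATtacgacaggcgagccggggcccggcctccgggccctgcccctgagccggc

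**Figure D3:**
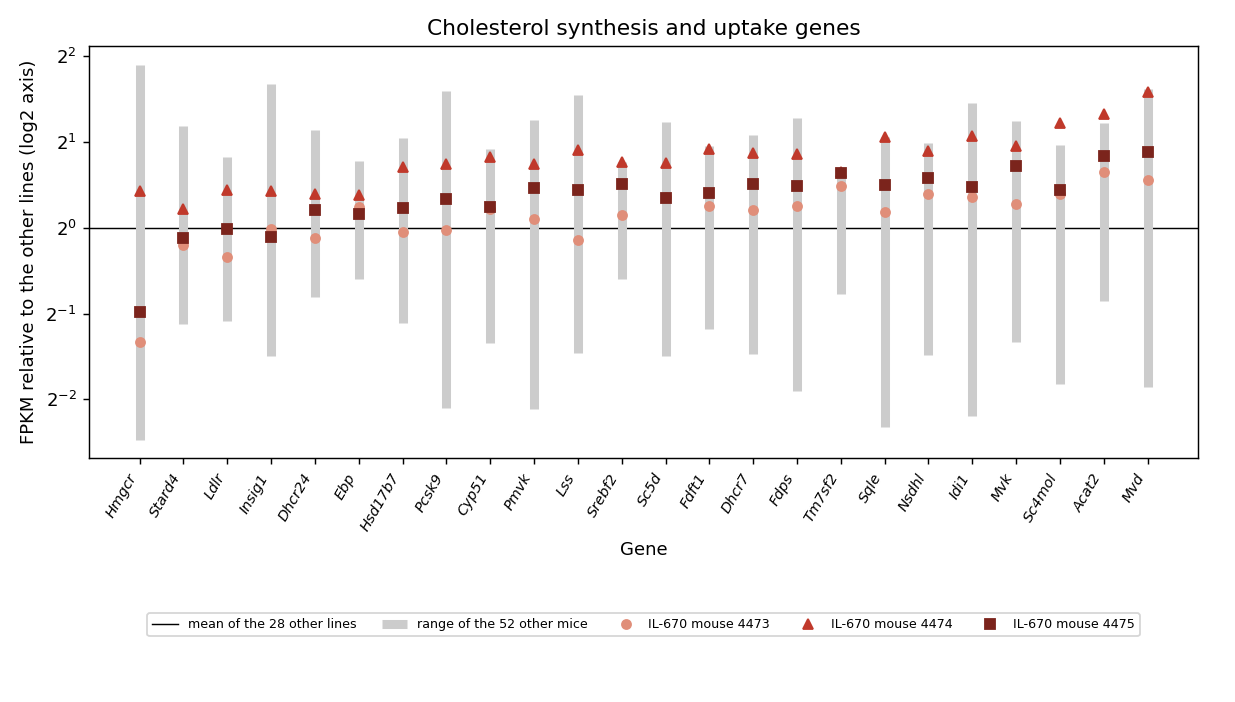
FPKM of the 24 cholesterol genes in each IL-670 mouse divided by the mean of the 28 other lines, on a log2 axis, with grey bars for the range of the 52 other mice and genes ordered by the IL-670 mean. Mouse 4474 (triangles) is highest in every gene and reaches 38.5 FPKM in Mvd, where the other lines average 12.8, and most points of the other 2 mice lie above the line at 1.

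Fatty acid oxidation, which breaks fat down in mitochondria and peroxisomes, was on the low side. Of 35 genes tested 10 were called lower and 1 higher (31.4% against 20.1% over all genes), with a median log2 difference of -0.38, and 2 of the 35 had a difference above 0. The largest differences were in Vnn1, a pantetheinase, at 0.39, 0.5 and 0.5 FPKM against a median of 6.46 (edgeR log2 difference -3.67 ± 0.82, adjusted p = 0.00144), and in the acyl-CoA thioesterases Acot1, Acot2 and Acot4 (-1.56, -1.38 and -1.14 on the log2 scale). Of the enzymes of the pathway proper, Eci1, which processes unsaturated fatty acids, was lowest of all lines with 47.0, 46.4 and 45.4 FPKM against a median of 81.7 (edgeR log2 difference -0.79 ± 0.15, adjusted p = 2.10e-04). Acads, Acaa1a, Slc25a20 and Aldh3a2 were lower as well, by 1.4, 1.42, 1.43 and 2.51-fold of the line means. The lower count was 5 without any 1 of the 3 mice. With body weight as a covariate it was 7.

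Of 32 genes of lipogenesis and triglyceride storage, 7 were lower and 1 higher (25% against 20.1% over all genes), and the median was -0.0047. The lower ones were led by Mogat1, which makes diglycerides (0, 0 and 0.05 FPKM against a median of 0.23), and by the lipid droplet proteins Cidec (0.15, 0.17 and 0.21 against 0.52) and Plin4 (0.04, 0.16 and 0.13 against 0.31), all at low levels. In bile acid synthesis 4 of 20 genes were higher and 2 lower (30%). Cyp7b1, of the alternative pathway, had 507, 368 and 415 FPKM against a median of 178 (edgeR log2 difference 1.53 ± 0.33, adjusted p = 0.0011), and Cyp8b1, which makes cholic acid, had 175, 196 and 193 against 136 (edgeR log2 difference 0.70 ± 0.23, adjusted p = 0.0278). Among the drug transporters, 3 of 32 were higher and 5 lower (25%), and Slc22a7, an organic anion carrier, was the largest change, at 87.9, 78.0 and 87.01 FPKM against 29.4.

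Of 44 genes of the growth hormone axis and of sex-biased expression, 7 were higher and 0 lower, a share of 15.9%, which is under the 20.1% over all genes. The median of the list was -0.11 on the log2 scale, and 9 members ranked among the 5 lowest lines and 4 among the 5 highest. These counts are near the shares over all genes, which were 21.8% among the 5 lowest and 7.34% among the 5 highest. Of the 7, 4 were major urinary proteins, the pheromone carriers that male livers secrete. Mup1 had 70151, 60873 and 70835 FPKM in IL-670 against a median of 2905 (range 19.9 to 80049.7), the second highest line mean, and Mup2 had 18563, 14519 and 16512 against 2943, the highest. The Mup genes are near-identical copies, so their single levels are uncertain. The summed level of the list was 135035 to 164512 FPKM against a median of 103716. The median log2 difference over all genes was -0.086 in line means of FPKM and 0.0011 in edgeR. Mup20, another member, was called higher (1783, 1311 and 2561 FPKM against a median of 1138) and had the opposite sign when every mouse was weighted equally. By line mean IL-670 was only at rank 13 of 29 for Mup20, in a gene whose line means ran from 3.21 to 7044 FPKM. Of 41 complement and coagulation genes 9 were higher and 2 lower (26.8% against 20.1% over all genes). Hc, complement C5, had 152, 160.3 and 189 FPKM against a median of 114 (edgeR log2 difference 1.00 ± 0.16, adjusted p = 3.26e-05), C1s was 1.28-fold the other lines, and F10 1.2-fold, whereas F7 was low. Of 26 serpins 8 were higher and 2 lower (38.5%), and copies of alpha-1-antitrypsin differed in direction. Serpina1a, with the highest line mean, had 8224, 8158 and 8644 FPKM against a median of 5264 (edgeR log2 difference 1.00 ± 0.10), and Serpina1e was lower at 203, 182 and 196 FPKM against a median of 4364. These copies share much of their sequence, so their levels are uncertain. Serpine2, a thrombin inhibitor, was higher at 12.7, 13.4 and 15.4 against 3.32. Apom, an apolipoprotein of HDL, had 72.7, 66.3 and 74.3 FPKM against 70.9 to 356 with a median of 213 (edgeR log2 difference -1.46 ± 0.22, adjusted p = 8.70e-06).

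The interferon-stimulated genes are switched on by interferon through STAT factors, and of 45 tested 11 were lower and 3 higher (31.1% against 20.1% over all genes), with a median log2 difference of -0.37. Ifit3 had 0.85, 0.56 and 1.29 FPKM against a median of 5.25 (edgeR log2 difference -2.41 ± 0.35, adjusted p = 7.81e-06), and Oas2, Oasl2, Mx1, Ifit1, Isg15, Irf7 and Rsad2 were lower too, between -1.72 and -0.89 on the log2 scale. The higher ones were Xaf1 and the near-identical pair Tgtp1 and Tgtp2, where mouse 4473 was far above the other 2 (10.97, 1.37 and 2.63 FPKM for Tgtp1). Xaf1 passed on fragment counts, while its mean FPKM was 5.87 against 6.11 in the other lines, and the share of its isoform Xaf1-005 was 14.8%, 8.8% and 16.0% against a median of 51.0%. Without mouse 4474, 2 interferon-stimulated genes were called lower.

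Of 13 markers of Kupffer cells, the macrophages of the liver, 4 were lower and 0 higher (30.8% against 20.1% over all genes), with a median log2 difference of -0.88. Cd163, a scavenger receptor for haemoglobin, had 0.06, 0.07 and 0.13 FPKM against a median of 1.33 (edgeR log2 difference -3.64 ± 0.54, adjusted p = 9.72e-06), the lowest line mean. Timd4, Clec4f and C1qa were lower at -1.16, -0.89 and -0.91 on the log2 scale. The markers summed to 89.1, 30 and 103 FPKM in the 3 IL-670 mice against 41.2 to 849, with a median of 132, and none of the 13 was at 0. Mouse 4474 lay below all 52 other mice in this sum and its line mates did not. Without it, 1 of the 13 was called lower. In whole liver, fewer cells of a type and less RNA per cell cannot be told apart. The part of this cell type in the interferon-stimulated and cholesterol results was not tested.

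Isoform ratios were the second readout. The percent share of 1 isoform was tested in each of 6157 genes, and 215 (3.49%) differed from the mean of the other lines, 105 higher (1.71%) and 110 lower (1.79%, limma), and Sdr42e1-001 was the one past the spread between lines (0.0162%). In 4 ratios (0.065%) all 3 mice lay outside the range of the others, 1 above and 3 below (0.0487%). Beside Sdr42e1-001 these were Afmid-001 (86.5%, 82.5% and 85.7% against at least 88.3%), of an enzyme of tryptophan breakdown, Ogfod2-001 (59.0%, 57.4% and 58.9% against at least 60.4%) and Ugt2b36-001 (94.7%, 94.9% and 95.0% against at most 94.1%), of a glucuronosyltransferase. The following were picked after their values were seen. Spp1-001, of the secreted protein osteopontin, was at 0% in all 3 IL-670 mice against a median of 96.4%, and other mice were at 0% too. H2-K1-003, of a class I histocompatibility molecule, made up 90.8%, 90.1% and 91.4% against a median of 13.2%, with other mice up to 92.7%. Of the 215 isoforms, 37 belonged to genes called higher and 45 to genes called lower by edgeR, which called 11.4% of all genes higher and 8.7% lower. The same shares over the genes of the 6157 ratios were not counted.

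**Figure D4:**
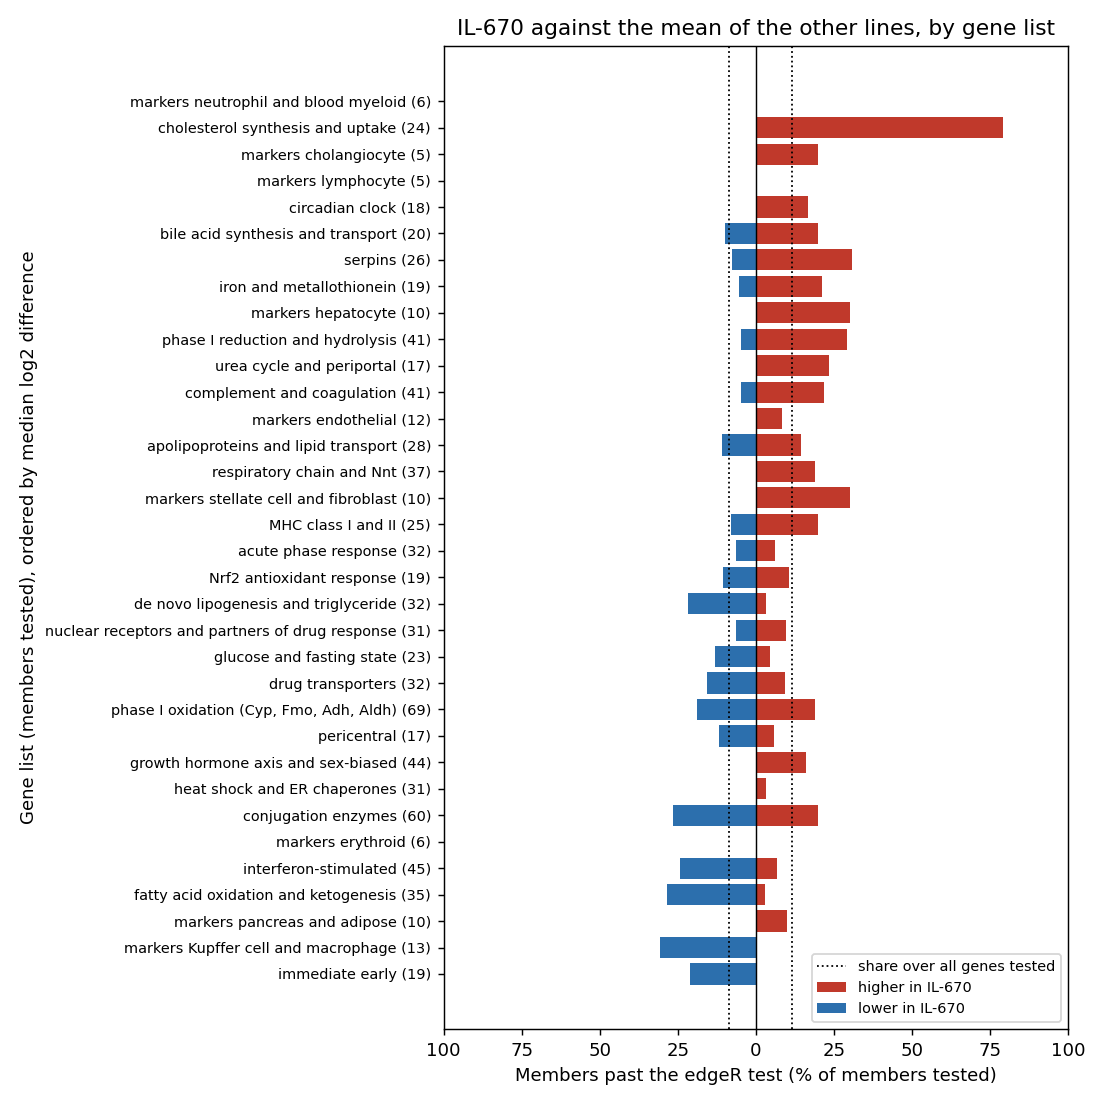
Share of the tested members of each gene list that edgeR called higher (red, to the right) or lower (blue, to the left) in IL-670, with lists ordered by median log2 difference, the number tested in parentheses, and dotted lines for the shares over all genes (11.4% and 8.7%). The cholesterol list reaches 79.2% on the right, while the Kupffer markers, fatty acid oxidation and conjugation lists reach furthest left.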

How the data were processed

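Livers of 55 male mice of 29 Collaborative Cross lines were profiled by stranded, polyA-selected, paired-end RNA sequencing with reads of 50 bases. The authors quantified each library with RSEM 1.2.18 and Bowtie 2 on mm9 with an Ensembl annotation and deposited, for each gene and isoform, the expected count (fragments that RSEM shares out among loci by likelihood, not whole), FPKM, TPM and the percent of the gene's expression given by each isoform. Sharing by likelihood makes levels of near-identical copies uncertain. Mice were grouped by strain label.

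Genes with a maximum FPKM of at least 2 were kept. Expected counts were rounded and tested with edgeR 4.0.16 (TMM, quasi-likelihood, line as the only term). Line means of log2(FPKM + 1) were tested with limma 3.58.1 (trend), and so were isoform percents in genes with at least 10 counts in every mouse. For each gene the isoform with the most levels in bins of 0.5 percent was taken (at least 12 levels). All tests were two-sided, with a threshold of 0.05 on adjusted p. Alternatives used DESeq2 1.42.0, other scalings, filters, line sets, body weight, and IL-670 without each mouse. Scripts ran in Python 3.11.15 and R 4.3.3 and were tested on simulated counts. The gene names follow the annotation in the files, and positions are in mm9 except for RefSeq promoters (GRCm38.p6).

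Genes named as past both tests and outside the range of other mice were those with the largest log2 differences and a mean of at least 2 FPKM (up to 15 a direction, of which 4 existed), with every gene of the study's list of drug disposition genes, up to 4 members of each list and up to 10 isoforms. The members and lists were chosen with earlier results of these data known. Other named genes were picked after their values were seen. No set test was run. Results of a few genes are not reported here. Libraries of 20.5 to 34.0 M estimated fragments leave genes of under 1 FPKM with few fragments, so small differences in them cannot be resolved.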

Additional observations from a re-analysis of the deposited data

How the results depend on the processing

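The 2269 edgeR calls became 216 (71 higher, 145 lower) when every mouse was weighted equally without a line term, and 1331 to 1697 without 1 of the IL-670 mice. The split was 1807 higher to 850 lower without the FPKM filter. The 7 genes beyond the spread between lines became 192 (184 higher) without the FPKM filter, where genes near 0 enter, 11 with only other lines of at least 2 mice, 11 without lines IL-1052 and IL-2750, 6 without mouse 4473 and 9 without mouse 4474. The split of these calls was 2 higher to 4 lower with log2 CPM, 2 to 5 with a pseudocount of 0.1 and 8 to 3 with lines of at least 2 mice. The 62 genes outside the range became 4 at 1.5 times beyond the nearest mouse and 84 to 106 without 1 IL-670 mouse. Isoform calls went from 215 to between 100 and 120 without 1 IL-670 mouse, with 45 higher and 75 lower without mouse 4474. In the other settings they numbered 196 to 270. Isoform calls against the spread between lines went from 1 to between 3 and 4 without 1 IL-670 mouse. They became 2 with at least 50 counts and 3 with the isoform of highest mean share.

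With mice weighted equally, conjugation enzymes had 1 higher and 7 lower, cholesterol genes 2 higher, fatty acid oxidation 1 lower and interferon-stimulated genes 1 lower. With lines of at least 2 mice the last had 17. Without 1 IL-670 mouse, cholesterol genes had 5 to 17 higher, fatty acid oxidation 5 lower each time, and interferon-stimulated genes 2 to 8 lower. The settings without 1 mouse use fewer mice. The setting with mice weighted equally has no line term, so the spread between lines is part of its error. For the others the cause was not tested. Of 297 gene and isoform results, 78 were past the threshold in every setting run for them. The sign turned in 1, Mup20, at -0.12 with mice weighted equally. Weighting mice equally without a line term lost 207, and leaving out 1 IL-670 mouse lost 80 to 103. The use of lines with at least 2 mice lost 30, body weight as a covariate 25, DESeq2 4 and the exclusion of IL-1052 and IL-2750 6.

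No paired analysis was possible because the replicate numbers only name mice within a line and the comparison is between lines. Low genes are limited by their few fragments.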

Other observations

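Numts, copies of mitochondrial genes in the nuclear genome, were at very high levels in IL-670. Gm13341, a copy of mt-Co2, had 6477, 6141 and 5401 FPKM against a median of 0.07 in the other mice, and Gm13340 and Gm13339, copies of mt-Co1 and mt-Nd2, had 6778, 6508 and 5776 and 3069, 2792 and 2251. The lines fell into 8 with a mean of over 1000 FPKM of Gm13341, IL-670 among them, and 21 with under 100. None of the 23 mitochondrial genes tested was called by edgeR, and their summed level was 61556 to 77345 FPKM in IL-670 against a median of 76016 in the other mice. Fragments of these copies cannot be told from those of the mitochondrial genes where the sequence is the same, so the levels are uncertain.

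Of the amino acid genes in the urea cycle and periportal list, 4 of 17 were higher and 0 lower (23.5% against 20.1% over all genes). Aldh1b1, a mitochondrial aldehyde dehydrogenase, had 69.7, 101.3 and 77.7 FPKM against 11.2 to 91.7 (edgeR log2 difference 1.52 ± 0.18, adjusted p = 1.61e-07) and the highest line mean, and Gls2, the liver glutaminase, had 131, 197 and 160.3 against a median of 102. In the list of glucose and the fasting state 3 of 23 were lower and 1 higher (17.4%, under the 20.1% over all genes), and Asns, asparagine synthetase, had 0.16, 0.1 and 0.1 FPKM against a median of 0.935 (edgeR log2 difference -3.04 ± 0.71, adjusted p = 0.00224). In the pericentral list 2 of 17 were lower and 1 higher (17.6%, likewise under it), and Oat, ornithine aminotransferase, had 63.0, 108 and 66.3 against a median of 211. Of 37 respiratory chain genes 7 were higher and 0 lower, a share of 18.9% that is near the 20.1% over all genes, among them Nnt (32.6, 32.2 and 30.7 FPKM against a median of 26.2).

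Of 18 clock genes 3 were higher and 0 lower, a share of 16.7% that is under the 20.1% over all genes. They were Per2 (2.71, 4.91 and 3.86 FPKM against a median of 1.64), Per3 (2.22, 4.03 and 2.65 against 1.45) and Dbp (38.4, 54.3 and 38.8 against 25.8), with mouse 4474 the highest of the 3 in each. Of 19 immediate early genes, which respond within minutes to stress and handling, 4 were lower (Nr4a1, Ier3, Dusp6 and Ier2, 21.1%, near the 20.1% over all genes), and 0 were called without mouse 4474. Of 31 heat shock genes 1 was called, Herpud1, which was higher (3.23%). Of 25 genes of the major histocompatibility complex 5 were higher and 2 lower (28% against 20.1% over all genes), with H2-T22, a class I gene, at 11.7, 9.2 and 9.3 FPKM against a median of 44.0, and H2-Eb1, a class II gene, at 19.9, 4.9 and 13.9 against 5.63. All 5 constant genes of immunoglobulins tested and 7 of 20 variable genes were higher, against 11.4% of all genes.

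In the Nrf2 list 2 of 19 were higher and 2 lower, a share of 21.1% that is near the 20.1% over all genes, with Nqo1, a quinone reductase, at 7.57, 9.13 and 7.78 FPKM against a median of 2.83 and Hmox1, heme oxygenase, at 4.66, 1.41 and 3.8 against 7.67. In the list of iron and metallothioneins 4 of 19 were higher and 1 lower (26.3%), and Ftl1, the ferritin light chain, had 2428, 2608 and 2584 FPKM against 2262. Of 31 nuclear receptors and partners 3 were higher and 2 lower (16.1%), among them the xenobiotic receptor Nr1i2, which was lower (9.25, 13.8 and 11.5 FPKM against a median of 16.1). In the acute phase list 2 of 32 were higher and 2 lower (12.5%), and of 28 apolipoproteins and lipid transport genes 4 were higher and 3 lower (25%). Among the markers of other cell types, genes called higher were 1 of 12 endothelial (8.33%), 3 of 10 stellate (30%), 1 of 5 cholangiocyte (20%) and 1 of 10 pancreas and adipose (10%). The share called higher over all genes was 11.4%. In either direction 0 of 5 lymphocyte, 0 of 6 neutrophil and 0 of 6 erythroid genes were called, against 20.1% over all genes.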
